A study of Homo sapiens with 4 samples.

Results

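The mRNA of FaDu cells that received miR-489 was set against that of FaDu cells given a control miRNA, for all genes other than the 53 that the paper lists as lowered candidate targets. The array carried 30977 gene names, of which the 53 were set aside with all of their probes, leaving 30924. Of these, 17313 gave a signal well above background in both channels. FaDu is an established line of hypopharyngeal squamous cell carcinoma. The miR-489 transfectant was labelled with Cy5 and the control transfectant with Cy3, 72 h after transfection, and both were hybridised to 1 Agilent array. There was 1 array, without a dye swap or a biological replicate, so no value below has a test and none separates an effect of miR-489 from variation between cultures or from the dye. For comparison, 3 further arrays of the same layout held miR-504 in FaDu cells, and miR-489 and miR-504 in HSC3 cells, a tongue squamous cell carcinoma line, each against control miRNA in the same line and time.

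miRNAs are short RNAs that guide Argonaute proteins to mRNAs, mostly through pairing of the seed near the 5′ end with sites in the 3′ untranslated region. The bound mRNA is translated less and is often degraded, so that direct targets tend to be lower, whereas genes downstream of those targets may be lower or higher. One of the 53 genes set aside is PTPN11, the phosphatase SHP-2, which relays signals of receptor tyrosine kinases to RAS and ERK. The mature sequences of the transfected miRNAs are given below from RefSeq (GRCh38.p14), because the seed is what separates them; capitals mark the seed, bases 2 to 8 from the 5′ end. miR-489 lies on chromosome 7, from 93483947 to 93483968 on the minus strand, and miR-504 on chromosome X, from 138667760 to 138667781 on the minus strand.
miR-489-3p: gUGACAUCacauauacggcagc
miR-504-5p: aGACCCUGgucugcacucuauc
No other mature human miRNA of that reference (0) has the seed of miR-489. The seeds of miR-489 and miR-504 differ, so that the miR-504 arrays serve as a second transfection with another seed.

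Ratios are given as log2 of Cy5 over Cy3, from the median spot signal minus the median local background, so that −1 is a 2-fold lower and 1 a 2-fold higher level in the miR-489 transfectant. The median ratio was set to 0; before this Cy5 was 1.5-fold brighter than Cy3 (0.58 on the log2 scale). Single signals are given before this step, in arbitrary scanner units. The squamous identity of the cells was checked in the control channel. Of 13 squamous markers 11 were well above background, up to a Cy3 signal of 27993 for KRT5; DSC3 was not, and KRT6A was not found by name. None (0) of 6 fibroblast markers was well above background, the highest Cy3 signal being 24.6. For leukocytes the number was 3 of 6, with PTPRC not among them and no signal above 261, for endothelium 1 of 4 and for melanocytes 2 of 4. In RNA of whole cultures, fewer cells of a type and less RNA per cell cannot be told apart.

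With Cy3 well above background there were 17673 genes, and 1521 of them (8.61%) were lower by 2-fold or more. With Cy5 well above background there were 18351, and 526 of them (2.87%) were higher by as much. Lower genes were thus 74.3% of those past 2-fold. This share varied with the processing. It was 49.6% with the normexp background correction, 45.2% without background subtraction and 62.2% in the deposited ratios, but 72.8% with loess, 77.1% with normexp followed by loess and 73.3% with mean spot signals. The ratios also varied with brightness. The genes were cut into 4 groups of equal size by signal. In the dimmest group the median was −0.32 and 11.4% were lower by 2-fold or more. In the brightest group the median was 0.12 and 5.61% were lower. Loess, which removes a trend with signal, brought these medians to 0.013 and −0.10.

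**Figure D1:**
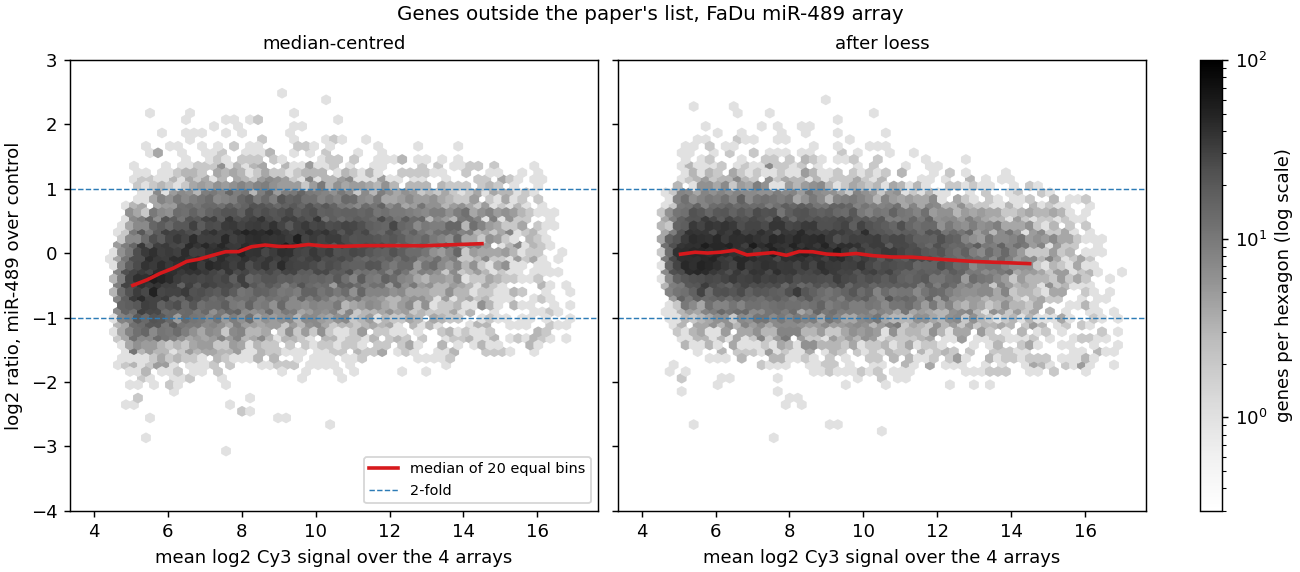
Log2 ratio of miR-489 over control on the FaDu array (y axis) against the mean log2 Cy3 signal over the 4 arrays (x axis), for the 17313 genes with a signal in both, with shading for the number of genes and a red line for the median of equal-sized bins. With median centring (left) the median is −0.32 in the dimmest of 4 equal groups of genes, and after loess (right) it is 0.013.

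Different probes of a gene read the same RNA at different sequences, so their agreement was used to choose the genes described first. There were 4057 genes with a current symbol and at least 2 probes well above background in both channels. By the brightest probe alone, 180 of them were lower by 2-fold or more and 130 higher. All probes were past 2-fold on the lower side for 30 genes (0.739%) and on the higher side for 29 (0.715%). After loess and in the deposited ratios the brightest probe remained past 2-fold for 27 and 16 of these genes. Probes overlapped in the deposited coordinates for 1 of the 27 genes, CYP4F2, and for 4 of the 16, STAT3, HSPB1, RPL29 and S100A11; for these the probes are not separate readings throughout.

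The lowest of the genes with agreeing probes belonged to several processes. CYP4F2, a cytochrome P450 that hydroxylates fatty acids and vitamin K, had a median of −1.73 (Cy3 1090 and Cy5 512 for the brightest probe). Its values on the arrays of FaDu miR-504, of HSC3 miR-489 and of HSC3 miR-504 were −1.59, −1.73 and −1.59, so that it was low on all 4 arrays. IFIT2, an interferon-induced antiviral protein, had the same median of −1.73 (Cy3 3521 and Cy5 1572), with probes at −1.74 and −1.71. CMTM6, a membrane protein that keeps PD-L1 at the cell surface, was at −1.66, or 31.7% of the control (Cy3 8692 and Cy5 3639). CMTM6 was at −1.62 in HSC3 cells after miR-489, and at −0.36 and −0.40 on the FaDu and HSC3 miR-504 arrays. Thus it was low on both miR-489 arrays and nearer 0 on both miR-504 arrays.

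GMCL1, a BTB-domain protein, was at −1.68 over 3 probes that ranged from −1.95 to −1.11. KIAA0090, now EMC1, a subunit of the complex that inserts proteins into the endoplasmic reticulum membrane, was at −1.61. SMC1A, a core subunit of cohesin, was at −1.59. In HSC3 cells after miR-489 these genes were at −1.37, −1.75 and −1.03, and on the FaDu miR-504 array at 0.21, −0.38 and −0.017. On the HSC3 miR-504 array they were at −0.19, −0.52 and −0.10. DHRS8, now HSD17B11, a lipid droplet dehydrogenase, was at −1.56, and LYPLA1, a thioesterase that removes palmitate from proteins, was at −1.50. ATF3, a stress-induced transcription factor, was at −1.54, with probes at −1.93 and −1.14. The FaDu miR-504 array gave 0.50 for ATF3, in the opposite direction.

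The remaining lowest genes were L3MBTL3, a chromatin reader (−1.44), FYB, now FYB1, an immune adaptor (−1.44), ANKS6, a ciliary protein (−1.43), and WNK4, a kinase of ion transport (−1.42). LOC222171, now PRR15 (−1.32), and FBXW7, the receptor of a ubiquitin ligase for cyclin E, MYC and Notch (−1.29), completed the 15 lowest. L3MBTL3 was also low on the FaDu and HSC3 miR-504 arrays, at −1.79 and −1.68, and ANKS6 was at −1.29 on the former by 1 probe. FBXW7 was at −0.92 and −0.77 on these arrays. The probes of PRR15 differed there, at −1.38 and 0.64 in FaDu and at −1.21 and −0.27 in HSC3 cells. Of the 27 lower genes, 26 were measured in HSC3 cells after miR-489 and 11 (42.3%) had a median probe at least 2-fold lower there, against 1.92% of all genes with 2 or more probes. On the HSC3 miR-504 array 7 of 27 (25.9%) were, against 1.0%. The medians of the 27 genes were −1.32 on the FaDu miR-489 array, −0.89 and −0.49 on the HSC3 miR-489 and miR-504 arrays, and −0.37 on the FaDu miR-504 array. The FaDu arrays may share control RNA, which the sources used here do not state.

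The highest genes with agreeing probes were in large part high on all arrays. STAT3, the transcription factor activated by cytokine and growth factor receptors, was at 1.99, with probes from 1.97 to 2.01 and a Cy5 signal of 1028 against a Cy3 signal of 172 for the brightest. STAT3 was at 1.23 on the FaDu miR-504, 1.71 on the HSC3 miR-489 and 1.29 on the HSC3 miR-504 array. Kua-UEV, a read-through transcript now named PEDS1-UBE2V1, was at 1.87 over 4 probes, which may also read UBE2V1. HSPB1, a small heat shock protein, was at 1.67 over 3 probes, and at 2.0, 1.57 and 1.80 on the arrays of FaDu miR-504, of HSC3 miR-489 and of HSC3 miR-504. PDPK1, the kinase that activates AKT, was at 1.61, PPP1R14B, an inhibitor of protein phosphatase 1, at 1.50, and the ribosomal protein RPL29 at 1.44. RPL29 has many processed pseudogenes with which its probes may share RNA. S100A11, ARPC4, PANK3, LMNA, LSM14A, LOC339745 (now SPOPL) and KLF6 were between 1.24 and 1.37.

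Only KIAA1913 and ZDHHC9 of the 15 highest genes were below 0 on the FaDu miR-504 array. KIAA1913, now TMEM200A, was the highest gene at 2.01, but was dim (Cy3 57.0 and Cy5 368). It was at −1.11 on the FaDu miR-504 array, 1.08 on the HSC3 miR-489 array and 0.37 on the HSC3 miR-504 array. ZDHHC9, an enzyme that attaches palmitate to RAS proteins, was at 1.34, with probes at 1.02 and 1.66. It was at −0.29, 1.22 and 0.28 on the same arrays. Of the 16 higher genes 14 (87.5%) had a median probe at least 2-fold higher in HSC3 cells after miR-489, against 1.90% of all, and 8 (50%) did so after miR-504, against 1.03%. A dye effect of a probe, a response to the control miRNA and a response to both miRNAs cannot be told apart in values that all 4 arrays share.

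**Figure D2:**
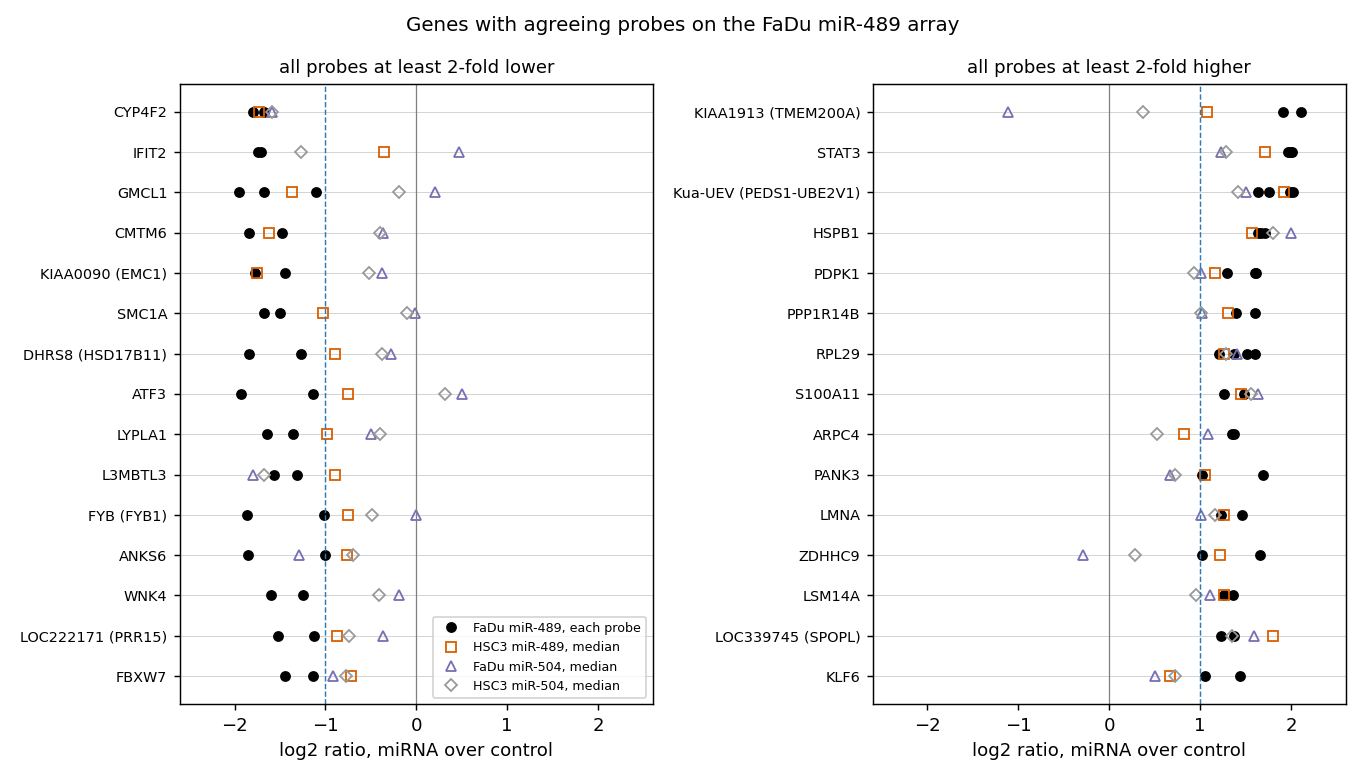
Log2 ratio of miRNA over control (x axis) for the 15 lowest (left) and 15 highest (right) genes whose probes were all past 2-fold on the FaDu miR-489 array; black points are single probes, open symbols the median of the same probes on the other 3 arrays, and the dashed line 2-fold. CMTM6 lay at −1.66 and −1.62 on the miR-489 arrays and at −0.36 and −0.40 on the miR-504 arrays, whereas HSPB1 lay between 1.57 and 2.0 on all 4.

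Over all genes measured on both, the calls of the FaDu and HSC3 miR-489 arrays, which share no RNA, were also compared. Of 16078 genes 990 were at least 2-fold lower in FaDu and 929 (5.78%) in HSC3 cells. Both conditions were met by 552 genes, which are 55.8% of the FaDu genes and 59.4% of the HSC3 genes. For higher genes the numbers were 505, 478 (2.97% of all) and 324, or 64.2% and 67.8%. The HSC3 miR-504 array shares neither RNA nor miRNA with FaDu miR-489. Still, 355 of 983 lower FaDu genes (36.1%) were lower on it, against 3.68% of all genes measured on both. They are 60.5% of its 587 lower genes. Among the higher FaDu genes 221 (43.8%) were higher on it too, against 2.13% of all. They are 65.0% of its 340. Each of these arrays had the miRNA transfectant in Cy5, so that a dye effect of a probe can be shared, which was not tested.

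Probes printed on the array 5 times or more give the error of spotting and reading. There were 199 such probes outside the 53 genes, with a median SD of 0.056 on the log2 scale between spots. Of these 6 were past 2-fold on the lower side and 10 on the higher. ERGIC2, a protein of transport between endoplasmic reticulum and Golgi, was the lowest at −1.66 ± 0.045 (SD, 10 spots; Cy3 2196 and Cy5 1035). ERGIC2 was at 0.068 on the FaDu miR-504, −1.15 on the HSC3 miR-489 and −0.034 on the HSC3 miR-504 array. It was low on both miR-489 arrays and within 0.1 of 0 on the others.

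MAPK14, the p38α stress kinase, was at −1.33 ± 0.061 (SD, 10 spots), and at −1.11 in HSC3 cells after miR-489, with 0.44 and 0.27 on the FaDu and HSC3 miR-504 arrays. Dimmer probes of MAPK14 gave −0.063 and −0.15, so that its probes disagreed. CDKN1B, the cyclin-dependent kinase inhibitor p27, was at −1.19 ± 0.063 (SD, 10 spots; Cy3 798 and Cy5 524), and a second probe gave −1.15. CDKN1B was at −0.0024 on the FaDu miR-504, −1.07 on the HSC3 miR-489 and −0.69 on the HSC3 miR-504 array. FGF2, a fibroblast growth factor, was at −1.40 ± 0.25 (SD, 9 spots) and was dim; it was at −0.17 in HSC3 cells after miR-489. HISPPD1, now PPIP5K2, an inositol phosphate kinase, was at −1.11 ± 0.096 (SD, 10 spots) and at −1.08 in HSC3 cells after miR-489. On the FaDu and HSC3 miR-504 arrays HISPPD1 was at −0.50 and −0.65.

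On the higher side STAT3 was at 1.99 ± 0.055 (SD, 10 spots), CTNNB1, β-catenin, at 1.62 ± 0.036, TGFB1 at 1.27 ± 0.083 and GSK3B, the kinase that marks β-catenin for degradation, at 1.19 ± 0.065. These 4 were between 0.66 and 1.71 on the other 3 arrays. GAPDH and RPLP0, often used as reference genes, were at 1.03 and 1.14 on their replicate probes, and after loess at 0.64 and 0.75. These spreads between spots leave out the variation between cultures, labellings and arrays.

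The genes were then grouped into 35 lists of pathways, complexes and cell structures. Over all genes measured in both channels the median was −0.015, with 6.80% past 2-fold on the lower side and 2.99% on the higher. The sign of the median was the same under all 8 alternative settings for 19 lists, of which 12 were above 0. Each list is given by its members measured in both channels, without a test. The lowered genes of the paper's list are in none of the lists, so that counts of lower members leave them out. A member's call is that of its brightest probe over the 4 arrays. Of 95 members past 2-fold, 43 had 2 or more probes measured in both channels, and for 30 of these not every probe was past 2-fold on the same side. Some named members were past 2-fold only before loess. ACLY, BAD, CDKN1A, DHCR7, DUSP4, H2BC12, IRF9, OAS3, TPI1, TPM2 and VCL were between 0.82 and 1.0 after it and FZD8 was at −0.94, whereas RIGI, HK2, IL1B and KRT10 came to lie between −1.22 and −1.06. For other members that changed side, the value after loess is given beside them.

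The components of the RAS-ERK pathway, which carries signals from receptors to the nucleus, had a median of 0.26 over 17 of 21 members. SOS1, GAB1 and KSR1 were not well above background in both channels and SOS2 was not found by name. Past 2-fold were 2 members on the lower side and 0 on the higher. SHOC2, a scaffold of the phosphatase that activates RAF, was at −1.43 (Cy3 281 and Cy5 156), or 37.2% of the control. SHOC2 was at 0.16 on the FaDu miR-504, −0.70 on the HSC3 miR-489 and −0.026 on the HSC3 miR-504 array. FRS2, the adaptor of FGF receptors, was dim (Cy3 36.0) and at −1.11, but at −0.39 after loess. MAPK3, the kinase ERK1, was at 0.46. The highest members were NRAS (0.72) and MAP2K1 (0.81), which encodes the ERK kinase MEK1.

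Genes whose transcription follows ERK activity had a median of 0.38 over 21 of 25 members. Above 0 were 17 of the 21, against 8477 of all 17313 genes. EGR1, a lowered gene of the paper's list, was set aside and is not among them. Of the 21 members, 0 were past 2-fold on the lower side and 2 on the higher. SPRY4 and DUSP4, feedback inhibitors of the pathway, were at 1.34 (Cy3 45.0 and Cy5 171) and 1.06 (Cy3 473 and Cy5 1480). SPRY4 was at −0.10, 0.62 and 0.42, and DUSP4 at −0.24, 0.48 and 0.43, on the arrays of FaDu miR-504, of HSC3 miR-489 and of HSC3 miR-504. DUSP6, a phosphatase of ERK, was at 0.39, but at −0.95, −0.34 and −0.58 on these arrays. CCND1, the cyclin D1 gene, was at −0.16, MYC at 0.087 (−0.11 after loess) and the early gene IER2 at −0.61. The list's median was −0.066 on the FaDu miR-504, 0.31 on the HSC3 miR-489 and 0.21 on the HSC3 miR-504 array. mRNA levels do not measure ERK phosphorylation.

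**Figure D3:**
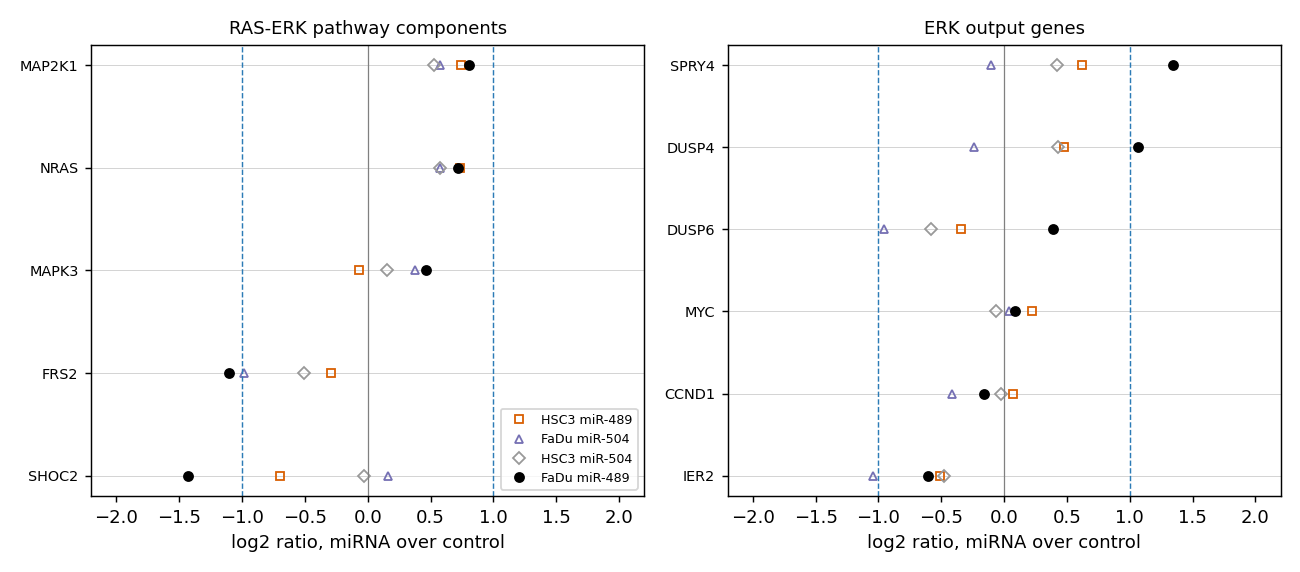
Log2 ratio of miRNA over control (x axis) for the RAS-ERK pathway components (left) and ERK output genes (right) named in the text, with a signal in both channels after miR-489 in FaDu cells (black), with the other 3 arrays as open symbols and 2-fold as dashed lines. Among genes outside the paper's list SHOC2 was the lowest component at −1.43, and SPRY4 and DUSP4 were the only output genes past 2-fold.

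The receptors and ligands of the EGFR family with MET had a median of −0.18 over 11 members and 0 past 2-fold. EGFR was at −0.18, ERBB2 at −0.23 and MET at 0.20, and the highest was the ligand NRG1 (0.98). In the PI3K-AKT-mTOR pathway 3 of 25 members were at least 2-fold lower and 4 higher, with a median of 0.22. EIF4EBP2, a repressor of cap-dependent translation, was at −1.61 (Cy3 6917 and Cy5 3392). Its relative EIF4EBP1 was at 2.07 (Cy3 1097 and Cy5 6904). EIF4EBP1 was between 1.73 and 1.92 on the other arrays, whereas EIF4EBP2 was at −1.58 after miR-489 in HSC3 cells and at −0.45 and −0.61 after miR-504; a dim EIF4EBP2 probe gave 0.080. TSC1, an inhibitor of mTOR, was at −1.12, and close to that on the other 3 arrays (−1.04, −1.01 and −0.93).

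Genes of G1 and of entry into S phase had a median of −0.16 over 25 members, 3 lower and 2 higher. Besides CDKN1B, the lower members were E2F3 (−1.15) and CCNE1, cyclin E1 (−1.06), both between −0.91 and −1.33 on the other arrays. CDK4 was at 1.29 and CDKN1A, the inhibitor p21, at 1.13, with a dim second probe of CDKN1A at 0.21. DNA replication genes had a median of 0.25 over 47 members, and 0 were past 2-fold in either direction. Mitotic genes had a median of 0.18 over 47 members, with 2 lower, NCAPG (−1.19) and CDK1 (−1.0). After loess these medians were −0.017 and −0.048, so that no direction is given for either list.

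Genes activated by p53 had a median of −0.018 over 22 members. BBC3 (PUMA) and BAX, which promote apoptosis, were at −1.11 and −1.04, and were between −1.03 and −1.24 on the other arrays. Their further probes disagreed, with 0.60 and −0.38 for BBC3, and 0.36 (10 spots) and −0.27 for BAX. FaDu cells are known to carry mutant p53. Among apoptosis regulators 4 of 29 were lower and 2 higher. BIRC3 (cIAP2), an inhibitor of apoptosis, was at −1.52 and HRK at −1.26. On the FaDu and HSC3 miR-504 arrays BIRC3 was at −1.18 and −0.42 and HRK at −1.16 and −1.31. BCL2L1 (BCL-XL) was at 1.04, with 0.27 and 0.49 on these arrays and 1.01 on the HSC3 miR-489 array. BAD was at 1.07, and between 0.99 and 1.14 on the other arrays.

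Interferon-stimulated genes, which cells induce against viral RNA, had the widest distance between quartiles of the 35 lists, with quartiles of −0.76 and 0.31 around a median of −0.13 over 33 of 36 members. After loess the median was −0.28. Past 2-fold on the lower side were 4 members, IFIT2, IFIT1, IFI44L and IFIT3, and on the higher side 2, OAS3 (1.09, with 0.41 by a second probe) and IRF9 (1.02). IFIT1 was at −1.39 (Cy3 4868 and Cy5 2774), IFI44L at −1.17 (−0.95 after loess) and IFIT3 at −1.13 (Cy3 1018 and Cy5 698). The brightest probe of IFIT2 was at −1.74. On the FaDu miR-504 array these 4 genes were above 0, with IFIT2 at 0.46, IFIT1 at 0.35, IFI44L at 0.62 and IFIT3 at 0.59. In HSC3 cells after miR-489 IFIT2 was at −0.095, IFIT1 at −0.46, IFI44L at −0.72 and IFIT3 at 0.28. After miR-504 in HSC3 cells they were between −0.98 and −0.41. These are values of the brightest probe. The second IFIT2 probe was lower in HSC3 cells, at −0.61 after miR-489 and −1.73 after miR-504, and was at 0.48 on the FaDu miR-504 array.

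OASL and HERC5 were split in the same way between the FaDu arrays. OASL was at −0.76 after miR-489 and 1.39 after miR-504 in FaDu cells, and HERC5 at −0.60 and 1.22. The RNA sensor gene RIGI was at −0.89, with −0.084 on the FaDu miR-504 array. In contrast, the membrane proteins IFITM1, IFITM2 and IFITM3 were at 0.86, 0.98 and 0.85, and between 0.85 and 1.16 on the other arrays. The transcription factor STAT2 was at 0.047. The list's median was 0.55 on the FaDu miR-504, 0.068 on the HSC3 miR-489 and −0.12 on the HSC3 miR-504 array. Both channels hold RNA of transfected cells, so that the ratio shows a difference between transfectants and not the level relative to untransfected cells.

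**Figure D4:**
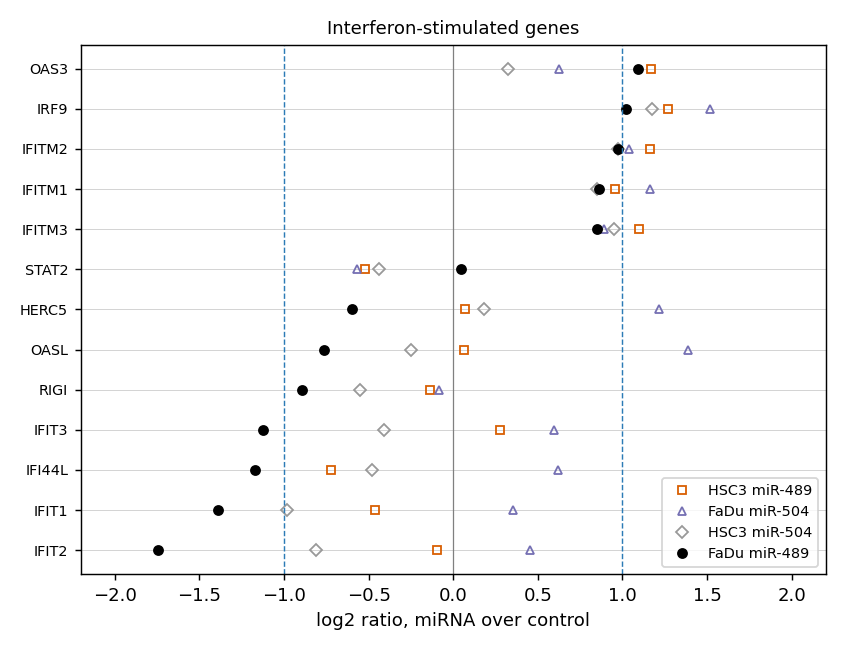
Log2 ratio of miRNA over control (x axis) for the interferon-stimulated genes named in the text, with a signal in both channels after miR-489 in FaDu cells (black), with the other 3 arrays as open symbols and 2-fold as dashed lines. IFIT2, IFIT1, IFI44L and IFIT3 were the 4 lowest after miR-489 in FaDu cells, and all 4 were above 0 on the FaDu miR-504 array.

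Cytokines and feedback genes of NF-kB, another innate response, had a median of 0.041 over 27 of 38 members and 0 past 2-fold in either direction. IL1B was the lowest at −0.94, and was at −1.43 in HSC3 cells after miR-489, against −0.26 and −0.42 on the FaDu and HSC3 miR-504 arrays. ICAM1 was at 0.68.

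Keratins, the intermediate filaments of epithelia, had the highest median of the lists, 0.65 over 16 of 22 members, and 0.41 after loess. At least 2-fold higher were 3, KRT14 (1.02), KRT17 (1.08) and KRT80 (1.18). A dim probe of KRT80 gave −1.40. After loess KRT14 and KRT17 were at 0.76 and 0.78. KRT3 was at −1.51 and KRT10 at −0.98. On the FaDu and HSC3 miR-504 arrays the keratin medians were 0.51 and 0.66, and on the HSC3 miR-489 array −0.0039. Genes of squamous differentiation and the cornified envelope had a median of −0.0066 over 24 of 46 members. SPINK5, a protease inhibitor of the epidermis, was at −1.52 and the protease KLK13, which was dim, at −1.10 (−0.62 after loess).

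In the list of desmosomes, cadherins and mesenchymal genes 3 of 26 were higher, CTNNB1 (with a second probe at 0.67), JUP (plakoglobin, 1.47) and CDH11 (1.20, Cy3 37.0), and 0 lower. JUP was between 1.34 and 1.49 on the other arrays. Integrins and laminins had a median of 0.34 over 25 members, with VCL, vinculin, the highest at 1.02 and a second VCL probe at 0.27. ITGB1, integrin β1, was at −0.68 by its brightest probe, but further probes gave 0.56 (10 spots), −0.12 and −0.24. Among metalloproteinases and plasminogen activators 2 of 23 were lower, MMP7 (−1.50, Cy3 120) and MMP12 (−1.27, Cy3 335). A second MMP12 probe gave −0.23. MMP12 was at −0.94 in HSC3 cells after miR-489 and −0.47 on the FaDu miR-504 array. Actin regulators had a median of 0.17 over 41 members (−0.022 after loess), 1 lower and 4 higher. The lower was PPP1CB, a catalytic subunit of protein phosphatase 1 (−1.44), by 1 of 4 probes. The other 3 probes of PPP1CB gave 0.080, 0.13 and 0.70. The highest were TPM2 (1.31) and CNN3 (1.38).

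In the Notch pathway 3 of 23 members were lower and 1 higher. The glycosyltransferases MFNG and LFNG, which modify Notch receptors, were at −1.14 and −1.02, with a second LFNG probe at −0.31. After miR-489 in HSC3 cells they were at −0.99 and −1.25, and on both miR-504 arrays between −0.21 and −0.42. The target gene HEY1 was dim and at −1.19 (−0.43 after loess), and the ligand DLL1 was at 1.20. In the Wnt pathway 4 of 33 were lower and 3 higher. The receptors FZD4 and FZD8 were at −1.19 and −1.12, LEF1 at −1.19 and PORCN, which acylates Wnt proteins, at −1.07. FZD4 was at −0.95 after miR-489 in HSC3 cells, and at 0.17 and −0.63 on the FaDu and HSC3 miR-504 arrays. LEF1 was between −1.63 and −0.96 on the other arrays. WLS, which carries Wnt proteins to the surface, was at 1.47, and between 1.39 and 1.69 on the other arrays. In the TGF-beta and BMP pathway 0 of 26 were lower and 1, TGFB1, higher. In the Hippo pathway, without NF2, a lowered gene of the paper's list, 0 of 21 were lower and 2 higher. These were VGLL4 (1.19, with 0.43 by a second probe) and FRMD6 (1.98), the latter between 1.42 and 1.84 on the other arrays. A dim second FRMD6 probe gave 0.19 and −0.048 on the HSC3 miR-489 and miR-504 arrays.

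Chromatin proteins of the Polycomb complexes, which silence genes through histone marks, held 4 of 28 lower members and 1 higher, with a median of 0.075. The lower share was 14.3%, against 6.80% of all genes, and the higher share 3.57%, against 2.99%. SUZ12, a lowered gene of the paper's list, was set aside and is not among them. RBBP4, a histone-binding subunit, was at −1.67 (Cy3 2644 and Cy5 1245). CBX6 was at −1.20, JARID2 at −1.19 and RYBP at −1.03, with a second RYBP probe at −0.73. After miR-489 in HSC3 cells RBBP4, CBX6, JARID2 and RYBP were at −1.80, −1.12, −1.42 and −1.12. On the FaDu miR-504 array they were at −0.22, −0.35, −0.19 and −0.54, and on the HSC3 miR-504 array at −0.32, −0.31, −0.22 and −0.55. By these probes all 4 were past 2-fold on both miR-489 arrays and on neither miR-504 array. A dim second RBBP4 probe disagreed, at 0.064 in HSC3 cells after miR-489. On the FaDu miR-489 array that probe was not well above background in both channels. PCGF1 was at 1.33 and between 0.94 and 1.11 elsewhere. Clustered histone genes had a median of 0.062 over 41 members (−0.12 after loess), with 1, H2BC12, past 2-fold (1.03).

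Proteins of the miRNA pathway itself had a median of −0.16 over 30 of 32 members. TNRC6A, the partner of Argonaute in silencing, was at 2.06 (Cy3 422 and Cy5 2631), but was also between 1.54 and 1.83 on the other arrays. A dim second TNRC6A probe, measured in both channels only on the FaDu miR-504 array, gave 0.053 there. RAN, the GTPase of nuclear transport, was at −1.09 and DCP1B, a decapping protein, at −1.07. RAN was past 2-fold by 1 of 3 probes, the others giving −0.30 and −0.082. The 7 genes named elsewhere as miR-489 targets had a median of −0.22, and 0 were past 2-fold. LAPTM4B was at −0.58, ULK1 at −0.44 (0.18 by a second probe), ERBB2 at −0.23, SMAD3 at −0.22 (0.45 by a probe with 10 spots), DEK at −0.044 and MYD88 at 0.59. In HSC3 cells after miR-489 LAPTM4B and ULK1 were at −0.28 and −0.27, and on the miR-504 arrays between 0.19 and 0.49.

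Of the NRF2 and antioxidant genes 2 of 28 were lower, SLC7A11, the cystine transporter (−1.29), and AKR1B10, an aldo-keto reductase (−1.29). SLC7A11 was at −1.14 after miR-489 in HSC3 cells and at 0.024 and −0.0082 on the FaDu and HSC3 miR-504 arrays. AKR1B10 was at −0.55, −0.19 and −0.20 on the same arrays. In the unfolded protein and integrated stress response the median was 0.14 over 39 members, but −0.063 after loess, so that no direction is given. Of these members 2 were lower (SLC7A11 and ATF3) and 1 higher, the amino acid transporter SLC7A5 (1.10, and 0.84 after loess). A second SLC7A5 probe gave −0.042, and further SLC7A11 probes gave −0.36 and −1.55. Sterol and fatty acid synthesis had a median of 0.34 over 35 members, with ACLY (1.11) and DHCR7 (1.24) past 2-fold. Glycolysis and hypoxia genes had a median of 0.27 over 30 members, with VEGFA at 1.18, TPI1 at 1.16 and the hexokinase HK2 at −0.98. Only 1 of 4 VEGFA probes was past 2-fold, and the others gave 0.25 (10 spots), −0.22 and 0.35. HK2 was at −1.09 after miR-489 in HSC3 cells and at −0.081 and −0.026 after miR-504 in FaDu and HSC3 cells. Heat shock chaperones had a median of 0.35 over 25 members, with HSPB1 past 2-fold.

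The medians of housekeeping complexes changed with loess, which removes a trend with signal. Cytosolic ribosomal proteins, among the brightest genes, had a median of 0.28 over 77 members, with 1 lower, RPS12 (−1.09), and 8 higher. The highest was RPL29 (1.60). After loess this median was −0.090. Oxidative phosphorylation, proteasome and reference genes had medians of 0.091, 0.20 and 0.18, and after loess −0.14, −0.070 and 0.022. Clathrin and its adaptor complexes had a median of 0.12 over 37 members, with only AP4S1 past 2-fold (−1.04), and a loess median of −0.017. The adaptor genes AP1S1 and AP1M2, lowered in the paper's list, had been set aside. Ribosomal protein genes also share near-identical pseudogenes, and the medians of this list were 0.26, 0.31 and 0.27 on the arrays of FaDu miR-504, of HSC3 miR-489 and of HSC3 miR-504. No direction relative to the other genes is given for these complexes.

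**Figure D5:**
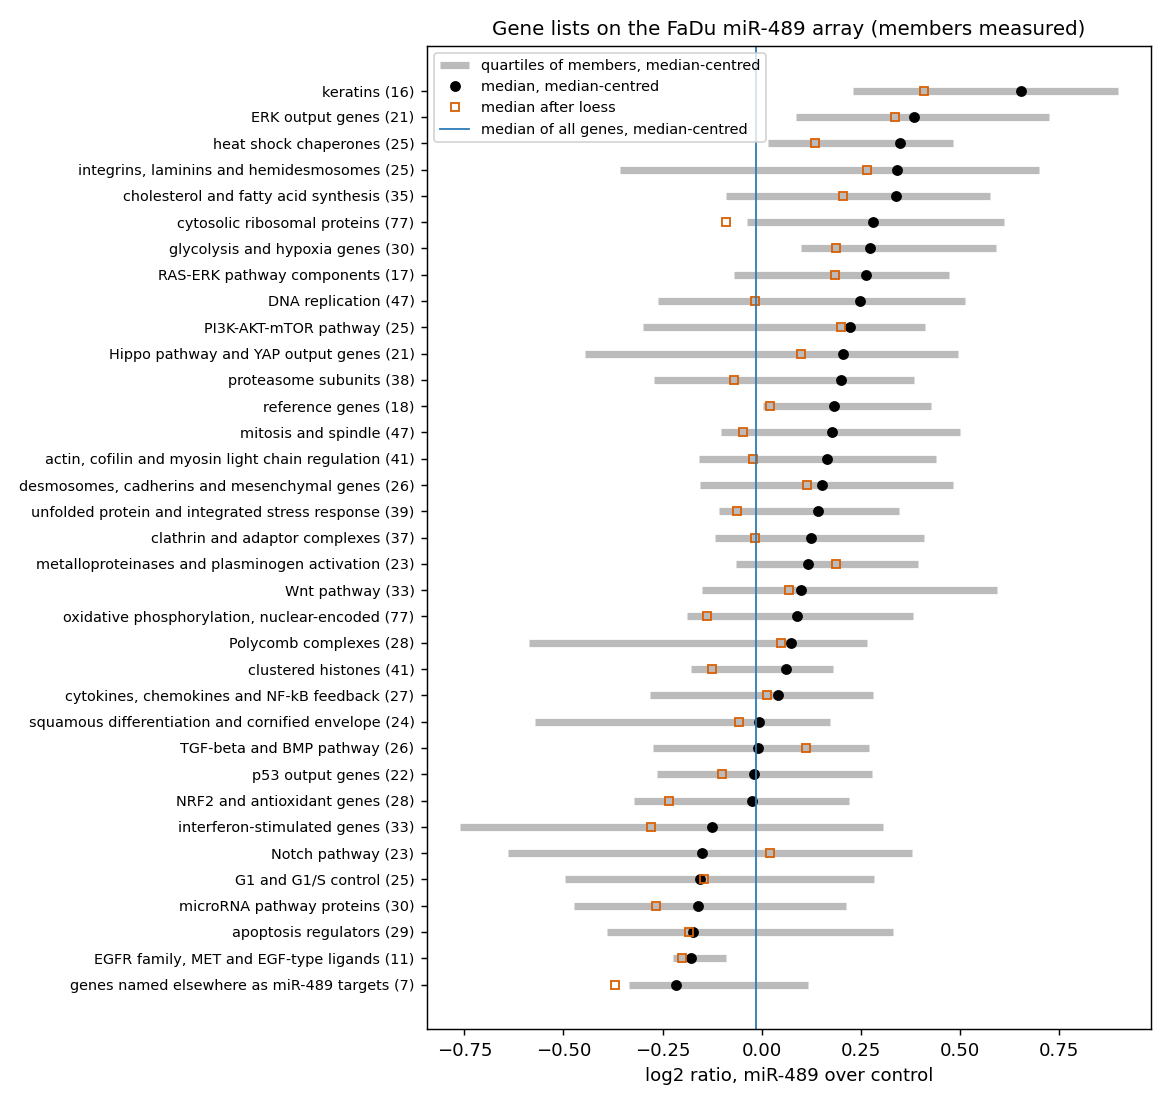
Median log2 ratio of miR-489 over control (x axis) for each of 35 gene lists, with the number of members measured in parentheses; black points are medians and grey bars quartiles after median centring, orange squares medians after loess, and the blue line the median of all genes. Keratins were highest at 0.65, and the ribosomal protein list moved from 0.28 to −0.090 after loess.

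Some genes were measured in 1 channel alone, so that their ratios are bounds. For 360 genes Cy3 was well above background and Cy5 was not, and for 1038 the converse held. The bounds compare the bright channel with the higher of the dim spot and the lowest signal well above background, after loess and scaling between arrays, and without a dye swap they are open to dye bias. For the higher genes the ratio with median centring was smaller, and is given as the bound. ALS2CR13, now FAM117B, had the brightest Cy3 signal among the former (148) against a Cy5 signal of 19, which is at least 8.90-fold lower. ALS2CR13 was measured in both channels elsewhere, at −3.42 after miR-489 in HSC3 cells and at −0.57 and −0.85 after miR-504 in FaDu and HSC3 cells. A second, dimmer probe of ALS2CR13 was not well above background in either channel. RAPGEF4, TRPM3, PAGE4 and PPP1R2P1 were at least 5.97-fold, 5.05-fold, 5.32-fold and 3.75-fold lower, from Cy3 signals of 80 to 91.5. Each of these values rests on 1 spot. The further TRPM3 probes (Cy3 7.5 to 14.5) and the second RAPGEF4 probe (Cy3 22) lay below 22.5, the lowest Cy3 signal well above background. PPP1R2P1 is a pseudogene that may share sequence with PPP1R2. On each of the other 3 arrays these 4 genes were not well above background in both channels. Of the converse genes, SPAG1, a dynein assembly factor (Cy5 122), was at least 3.02-fold higher and EOMES, a T-box transcription factor, at least 2.39-fold. After loess these were 3.86-fold and 3.21-fold. TRMT61B, listed as FLJ20628, was at least 2.08-fold higher, COL5A1 at least 1.47-fold and RUNX2 at least 1.40-fold. SPAG1 was at 1.91 on the HSC3 miR-489 array and at 0.62 and 0.77 on the FaDu and HSC3 miR-504 arrays.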

How the data were processed

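The deposited scanner output of 4 two-colour Agilent arrays was used, 1 per transfection, with Cy3 as control miRNA and Cy5 as miR-489 or miR-504 per the labels. The authors deposited median and mean intensity values of each spot and its local background, made with Feature Extraction 9.5.3.1 and not normalised, and a log10 ratio that this software had dye-normalised. The series' value table, also deposited, held the same log10 ratios on this array (largest difference 0). Marks of 0 or 1 deposited for each spot (well above background, outlier, saturation) decided which spots were used. The ratios here follow the paper's methods in the global normalisation of median signals less background.

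On the FaDu miR-489 array 43376 non-control spots were read, 137 outlier spots were left out and 0 were saturated. Cy3 was well above background for 58.6% of spots and Cy5 for 61.2%. Signals below the lowest one well above background (Cy3 22.5, Cy5 9.50) were raised to it. Log2 ratios were centred on the median of spots well above background in both channels, and spots were averaged per probe. A gene took the probe with the highest mean log2 Cy3 signal over the 4 arrays. The genes of the paper's list were removed by symbol and accession. Current symbols came from RefSeq (GRCh38.p14) for 23427 probes by accession, 2316 by symbol and 1042 by synonym; 14205 had none. The build of the file coordinates is not given in the sources used here.

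Named genes were the 15 lowest and 15 highest with agreeing probes, the 5 lowest and 5 highest probes with 5 or more spots, the 2 lowest and 2 highest of each list, the genes named elsewhere as targets, and the 5 brightest genes measured in each channel alone. Other named list members, GAPDH, RPLP0 and probes named for disagreement were chosen after their values were seen. Some genes that this rule names are not reported here, but remain in the counts and medians. The members and lists were chosen with earlier results of these data known. With 1 array there is no test, so precision is limited by the number of arrays. Scripts were tested on simulated data. The alternatives were normexp (offset 50), no background subtraction, mean spot signal, loess (span 0.3), normexp with loess, the deposited ratios, other filters on dim probes, the mean of all probes and a 4-fold threshold. Seed matches of miR-489 in transcripts, although planned, were not compared, because no transcript sequences were used here. The fits ran in R 4.3.3 (limma 3.58.1), tables in Python 3.11.15 with pandas 2.3.3, and figures in matplotlib 3.10.9.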

Additional observations from a re-analysis of the deposited data

How the results depend on the processing

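No paired analysis was possible because there was 1 array per condition and no test. The number of lower genes, 1521, was 462 with normexp, 483 without background subtraction, 647 with normexp and loess, 9473 without a filter on dim probes and 159 at 4-fold. The number of higher genes, 526, was 192 with normexp and loess, 811 in the deposited ratios and 12 at 4-fold. Genes with all probes lower, 30, were 9 with normexp, 7 without background subtraction and 14 with normexp and loess. Genes with all probes higher, 29, were 15 with loess and 9 with normexp and loess. The other settings kept these counts within 1.5 times.

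The median of RAS-ERK components was 0.16 with normexp and loess and 0.15 with the mean of all probes. That of ERK output genes was 0.26 with normexp, 0.23 without background subtraction, 0.25 with normexp and loess and 0.26 with the mean of all probes. That of G1 genes was −0.032 with the mean of all probes, and that of interferon-stimulated genes −0.28 with loess and −0.24 with the mean of all probes. The keratin median was 0.80 without background subtraction, 0.41 with loess, 0.39 with normexp and loess and in the deposited ratios, 0.48 without a filter and 0.50 with the mean of all probes. The ribosomal protein median was 0.43 without background subtraction, −0.090 with loess, −0.099 with normexp and loess and −0.19 in the deposited ratios. KRT80, listed as LOC144501, was at −0.11 with the mean of all probes. Of 102 named genes measured in both channels and past 2-fold, 99 were still so with mean spot signals, 90 in the deposited ratios, 83 with loess, 80 with normexp, 74 without background subtraction and 64 with normexp and loess. The filter requiring both channels was already part of the list values. The causes were not tested, apart from the filter and the threshold, which change the genes counted. Signal over background leaves bounds for the 360 genes well above it in Cy3 alone and the 1038 in Cy5 alone.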
